A study of Mus musculus with 20 samples.

Results

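The genes described here encode enzymes that make superoxide, hydrogen peroxide and nitric oxide in the colon, together with their partner subunits and a peroxide-removing enzyme. They are Duox2, Duoxa2, Nox1, Noxo1, Noxa1, Cybb, Nos2 and Gpx2, and they were found by their gene symbols in the GENCODE annotation. All 8 were among the 26619 gene rows of the count table, and all 8 were among the 17893 genes with enough counts to be tested. RNA was sequenced from the distal colon (DC), near the anal end, of 20 C57BL/6 mice, 5 on each of 4 diets. From weaning, at an age of 3 to 4 weeks, all mice ate the Total Western Diet (TWD), modelled on what people in the United States eat, for 6 weeks. They then ate the TWD with 0, 2, 5 or 10% resistant potato starch (RPS), which the labels call raw potato starch, for 3 weeks. The TWD without RPS is the control, so every group shares the Western background diet. The labels name no genetic change and no sex, and each library came from a single mouse.

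The labels disagree on the diet of 3 mice, and the description label was followed. RS10_717 is 5% by that label and 2% by the treatment label, RS10_725 is 10% and 5%, and RS10_748 is 2% and 10%. RS10_725 had the highest levels of Duox2 and Duoxa2 of all 20 mice, so the contrasts and trends of these 2 genes are given with and without it. Library totals ranged from 18.43 to 34.97 M counts, with means of 32.8 M in the control group and 24.3 M in the 10% RPS group. One library stood apart: pancreas markers summed to 6321 CPM, the count scaled to a common library total, in RS10_721 of the 5% group and to at most 887 CPM in the other 19 mice. Epithelium was present in the libraries, with 10 of 10 epithelial markers detected in every diet and summed levels of 15292 to 21952 CPM. Whether these markers tell the DC from other parts of the gut was not tested.

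DUOX2 is a dual oxidase of the apical membrane of epithelial cells that releases hydrogen peroxide toward the lumen, and it leaves the endoplasmic reticulum only with its maturation factor DUOXA2. NOX1 is the superoxide-producing NADPH oxidase of colon epithelium, and it works with the organizer NOXO1, the activator NOXA1 and the membrane subunit p22phox, the product of Cyba. CYBB, also called gp91phox or NOX2, is the oxidase of phagocytes. NOS2 is the inducible nitric oxide synthase, and GPX2 is the glutathione peroxidase of gut epithelium, which removes hydrogen peroxide.

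Duox2 (ENSMUSG00000068452) and Duoxa2 (ENSMUSG00000027225) lie head to head on chromosome 2 and are read away from each other. In GRCm39, Duox2 covers chr2:122109728-122128930 on the minus strand and Duoxa2 covers chr2:122129380-122133366 on the plus strand, with 449 bases between their starts. Both are protein coding. RefSeq promoter windows, from 250 bases before to 50 bases after the gene start, were at hand for 7 of the 8 genes. The windows of this pair are shown because they lie within the same short stretch of DNA, and that of Cybb is shown because it held the most matches. They are written from 5′ to 3′ on the strand of the gene, in build GRCm38.p6, with matches to the searched words in capitals. The Duox2 window is chr2:122298178-122298477, minus strand. The Duoxa2 window is chr2:122298650-122298949, plus strand. The Cybb window is chrX:9469275-9469574, minus strand.
Duox2: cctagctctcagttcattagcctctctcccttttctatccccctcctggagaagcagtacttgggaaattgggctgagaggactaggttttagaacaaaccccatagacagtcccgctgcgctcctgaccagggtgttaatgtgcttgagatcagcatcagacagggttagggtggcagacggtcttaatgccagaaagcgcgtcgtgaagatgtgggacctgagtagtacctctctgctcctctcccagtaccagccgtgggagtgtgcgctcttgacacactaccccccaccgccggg
Duoxa2: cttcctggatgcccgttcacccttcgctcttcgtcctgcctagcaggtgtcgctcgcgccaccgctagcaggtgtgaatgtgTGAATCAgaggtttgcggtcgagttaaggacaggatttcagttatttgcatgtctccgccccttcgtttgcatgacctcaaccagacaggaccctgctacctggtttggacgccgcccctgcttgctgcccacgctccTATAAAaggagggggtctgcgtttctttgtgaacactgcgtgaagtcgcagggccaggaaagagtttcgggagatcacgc
Cybb: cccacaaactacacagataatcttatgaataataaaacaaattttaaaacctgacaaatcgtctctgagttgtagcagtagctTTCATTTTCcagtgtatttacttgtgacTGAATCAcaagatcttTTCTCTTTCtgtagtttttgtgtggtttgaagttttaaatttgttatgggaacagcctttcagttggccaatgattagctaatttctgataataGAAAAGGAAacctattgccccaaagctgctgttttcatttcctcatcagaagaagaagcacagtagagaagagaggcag

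Each of the 7 windows matched the GRCm39 genome once. The Duox2 start that RefSeq uses lay 222 bases inside the GENCODE gene. That of Noxo1 lay 526, that of Cybb 18447 and that of Nox1 110102 bases inside. The RefSeq starts of Duox2 and Duoxa2 are 672 bases apart in GRCm38.p6. The words searched on both strands were TTCNNNGAA (STAT factors), GGANTTTCC (NF-kB), GAAANNGAA (core of the interferon-stimulated response element), TGACNNNGC (NRF2), the AP-1 word TGANTCA and the TATA box word. The last of these spells TATAAA. The Duoxa2 window held TATAAA 30 bases before the start, a word found in 13.6% of 32851 promoters. It also held TGANTCA as TGAATCA 168 bases before the start, a word found in 7.81% of promoters. The Cybb window held GAAANNGAA at 3 places, 2 of them on the other strand, and 8.56% of promoters held at least 1. It also held TGAATCA. The Duox2, Nox1, Noxo1, Noxa1 and Gpx2 windows held none of the 6 words. The other shares of all promoters were 8.3% for TTCNNNGAA, 1.25% for GGANTTTCC and 12.4% for TGACNNNGC. The AP-1 word leaves its middle letter open, and its matches in the Duoxa2 and Cybb windows both have A there. A match is a run of letters and was not tested as a binding site.

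Levels of the genes can be compared with each other only per length of transcript, and Gpx2 stood far above the others on that scale. Gpx2 measured 283.5 ± 73.4 CPM per kb (SD, n = 20 mice). Next came Noxa1 at 28.6 ± 5.27, Duox2 at 18.5 ± 7.14, Noxo1 at 11.3 ± 1.36, Duoxa2 at 8.58 ± 4.63 and Nox1 at 7.23 ± 3.57 CPM per kb. Cybb followed at 2.17 ± 0.464 and Nos2 at 0.763 ± 1.16 CPM per kb. The ranges over mice overlapped for Noxo1 (8.70 to 12.9), Duoxa2 (2.60 to 22.5) and Nox1 (3.28 to 14.3 CPM per kb). Those of Noxa1 (21.4 to 42.8) and Duox2 (9.55 to 35.4 CPM per kb) overlapped too. Duox1, the related dual oxidase, was far lower at 0.0846 CPM per kb, as was its maturation factor Duoxa1 at 0.285 CPM per kb. Cyba, the membrane partner of both NOX1 and CYBB, measured 73.2 CPM per kb. Noxo1 varied least between mice, from 21.8 to 32.4 CPM, and Nos2 varied most, with a 46.1-fold range.

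By edgeR's test of a trend, described below, only Duox2 and Duoxa2 of the set rose with the share of RPS after adjustment. Duox2 measured 83.0, 76.4, 75.8, 109.6 and 58.4 CPM in the 5 mice on 0% RPS, in order of mouse number as in all such values here, and 67.1, 110.1, 103.3, 90.6 and 83.4 CPM on 2% RPS. It measured 124.4, 93.5, 182.8, 147.3 and 118.3 CPM on 5% RPS and 216.4, 105, 112.3, 102.2 and 205.2 CPM on 10% RPS. Thus 4 of 5 mice at 5% and 3 of 5 at 10% lay above the highest control, and the 10% group split into RS10_725 and RS10_784, both high, and 3 mice between 102.2 and 112.3 CPM. The median was 124.4 CPM on 5% RPS and 112.3 CPM on 10% RPS. Duoxa2 measured 9.64, 9.05, 9.26, 10.4 and 8.47 CPM on 0% RPS, a narrow range, and 4.14, 9.71, 9.81, 9.59 and 13.2 CPM on 2% RPS. It measured 17.5, 8.18, 23.0, 15.6 and 14.6 CPM on 5% RPS and 35.8, 14.8, 13.1, 11.1 and 26.7 CPM on 10% RPS. Its median was 15.6 CPM on 5% and 14.8 CPM on 10% RPS. All 5 mice on 10% RPS lay above all 5 controls, a pattern shown by 1.13% of the tested genes. In bulk tissue, more cells of a type and more RNA per cell cannot be told apart.

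**Figure D1:**
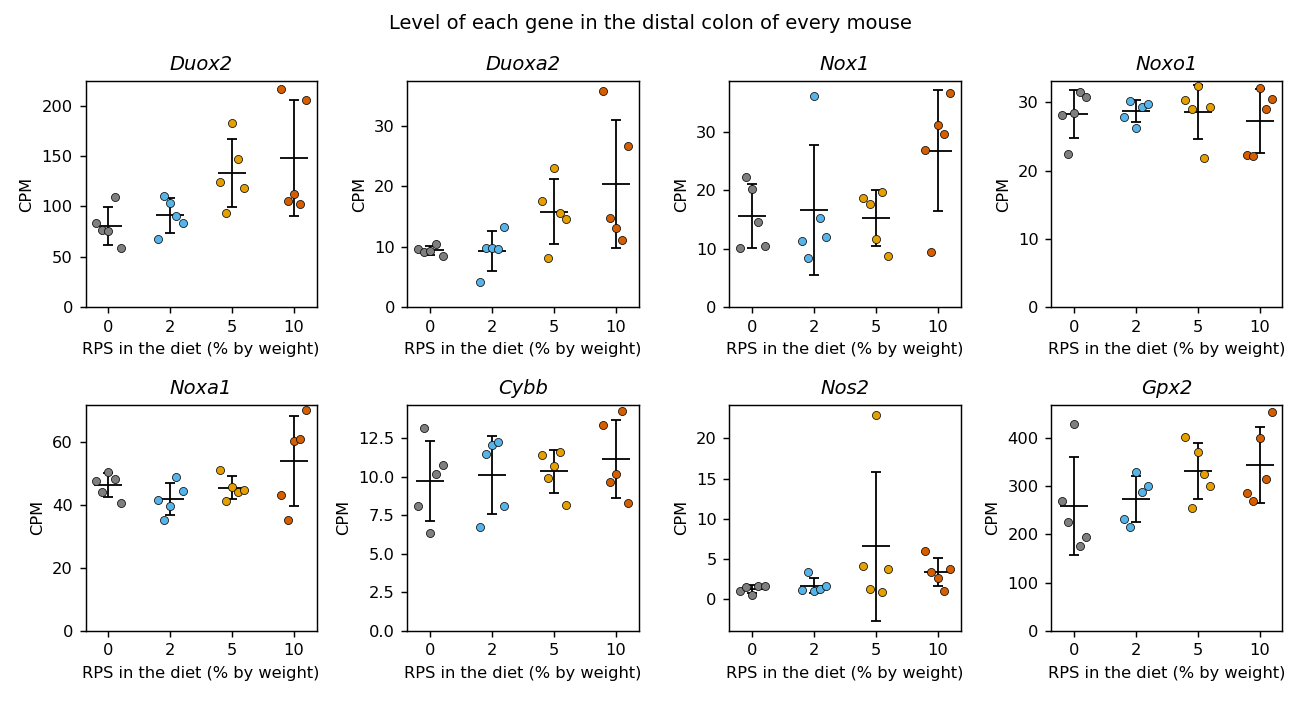
Level of each gene in CPM (vertical axis) in every mouse against the RPS content of its diet in percent by weight (horizontal axis). Points are mice, 5 per diet, and bars are the mean ± SD. For Duoxa2 all mice on 10% RPS lie above the controls, and for Nos2 the mean on 5% RPS is set by a mouse at 22.9 CPM.

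Against 0% RPS, the log2 fold change of Duox2 was 0.17 ± 0.24 (SE) at 2%, 0.72 ± 0.24 at 5% and 0.88 ± 0.24 on 10% RPS. That of Duoxa2 was -0.01 ± 0.32, 0.75 ± 0.32 and 1.12 ± 0.32. By edgeR's quasi-likelihood test with Benjamini-Hochberg adjustment over all tested genes, neither passed an adjusted p of 0.05 on 10% RPS, with 0.103 for Duox2 and 0.120 for Duoxa2. None of the 8 genes passed on 10% RPS, where 0.0391% of all tested genes were called as higher, and none on 5 or 2% RPS, where 0% of genes were called. DESeq2, the tool that the study used, called 2 of the 8 as higher on 10% RPS, where it called 0.8% of genes as higher. These were Duox2, with a DESeq2 adjusted p of 0.00918, and Duoxa2, with 0.0372. Without RS10_725 the log2 fold changes by edgeR were 0.70 ± 0.23 (adjusted p = 0.198) and 0.81 ± 0.30 (adjusted p = 0.235), and DESeq2 was not run without it. At an unadjusted p under 0.05 by edgeR, the same 2 of the 8 were higher on 10% RPS, against 7.32% of all genes. The set as a whole had a median log2 fold change of 0.60 on 10% RPS, with 7 of 8 genes higher, while the median over all tested genes was -0.01.

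A linear trend over RPS percent was called by edgeR for Duox2 (adjusted p = 0.0404) and Duoxa2 (adjusted p = 0.0359) and for none of the other 6 genes, and 1.15% of tested genes were called as rising. At an unadjusted p under 0.05 by edgeR, 5 of the 8 rose, with Nox1, Noxa1 and Gpx2 beside these, against 1610 of the 17893 tested genes. The fitted slope over 10 percentage points of RPS was 0.92 ± 0.23 on the log2 scale for Duox2 and 1.23 ± 0.30 for Duoxa2. DESeq2 called the same trends, with adjusted p-values of 0.00149 and 0.00475, where 3.44% of genes were called as rising. The test of any diet difference called none of the 8 genes and 0.0727% of all genes. The slopes kept their sign in all 26 alternatives, but the call did not hold in 13 of them for Duox2 and in 11 for Duoxa2. Without RS10_725 the adjusted p was 0.1004 for Duox2 and 0.101 for Duoxa2, and without RS10_784 it was 0.132 and 0.113. Without the 3 mice whose labels disagree it was 0.140 and 0.115, and with diets by the treatment label it was 0.384 and 0.348. With epithelial markers as a covariate it was 0.489 and 0.449, while the log2 fold changes on 10% RPS were 0.88 ± 0.31 and 1.07 ± 0.41. That covariate, here and below, was the mean log2 CPM of 10 markers, among them Cdx2, which DESeq2 called as higher on 10% RPS. Whether it carries part of the diet difference was not tested. With no filter on low counts the adjusted p of the trend was 0.0623 for Duox2 and 0.0565 for Duoxa2. Both calls were also lost when RS10_701, RS10_708, RS10_712 or RS10_716 was left out, with adjusted p-values of 0.0519 to 0.0935. The call of Duox2 alone was lost without RS10_709 (0.0581), RS10_717 (0.0507) or RS10_748 (0.0548), and that of Duoxa2 alone without RS10_707 (0.0508).

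**Figure D2:**
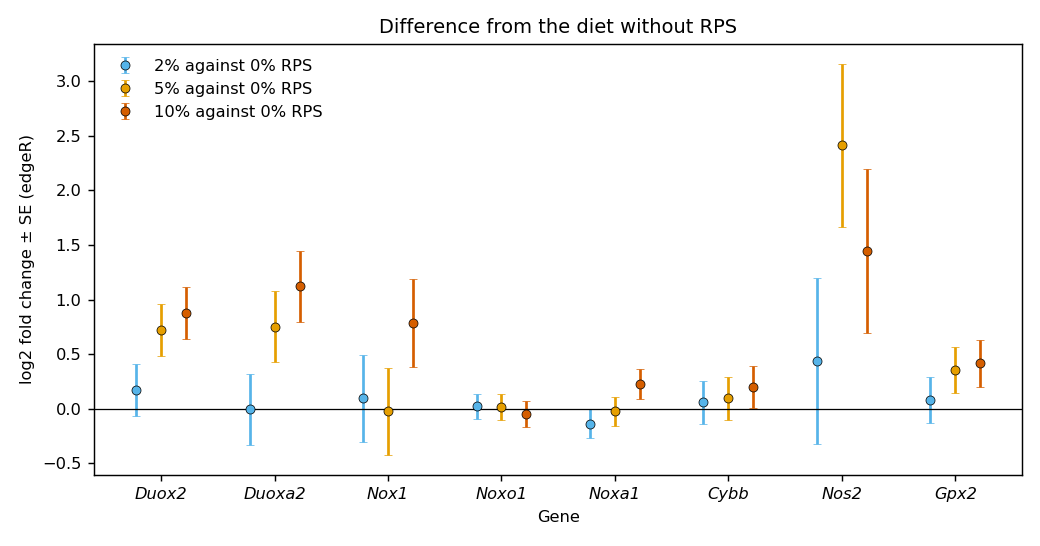
Log2 fold change ± SE from edgeR (vertical axis) of each of the 8 genes (horizontal axis) on 2, 5 and 10% RPS against 0% RPS, 5 mice per diet. Duox2 stands at 0.72 ± 0.24 on 5% and 0.88 ± 0.24 on 10% RPS and Duoxa2 at 0.75 ± 0.32 and 1.12 ± 0.32, Nox1 stands at 0.78 ± 0.40 on 10% RPS, and Noxo1 stays near 0.

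The ratio of the maturation factor to its oxidase was compared within each library, where the scaling of libraries cancels. The log2 ratio of Duoxa2 to Duox2 was -3.07 ± 0.22 (SD, n = 5) on 0% RPS, -3.35 ± 0.48 at 2%, -3.11 ± 0.26 at 5% and -2.93 ± 0.23 on 10% RPS. On 10% RPS it differed by 0.14 (exact permutation test, two-sided, p = 0.349, or 0.786 after adjustment for 9 ratio comparisons). The smallest p that 5 against 5 mice can give is 0.00794. Duoxa2 shares 682 exon bases, 42.8% of its exons, with Duoxa1 on the opposite strand, and how the counting used strand is not given in the sources used here. Duoxa1 measured 0.595 ± 0.0987 CPM on 0% RPS and 0.997 ± 0.262 CPM on 10% RPS (SD, n = 5). The log2 fold change was 0.75 ± 0.22 (edgeR adjusted p = 0.121), and DESeq2 called its trend (adjusted p = 0.0227). Its level over the 20 mice had a Pearson r of 0.77 with that of Duoxa2, and reads of the pair may not be separate. Duox1 was at 0.421 ± 0.108 CPM on 0% RPS and 0.341 ± 0.0961 CPM on 10% RPS and was not called (edgeR adjusted p = 0.690).

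Nox1 (ENSMUSG00000031257, GRCm39 chrX:132987170-133122705, minus strand) had its highest mean on 10% RPS, but its mice were widely spread in every diet. It measured 10.2, 22.2, 20.2, 14.6 and 10.5 CPM on 0% RPS and 11.3, 8.41, 36.1, 15.2 and 12.0 CPM on 2% RPS. It measured 18.6, 17.7, 11.6, 19.7 and 8.71 CPM on 5% RPS and 26.9, 9.36, 31.1, 29.5 and 36.7 CPM on 10% RPS. The highest control was exceeded by 4 of 5 mice on 10% RPS, and the fifth, RS10_727, lay below the lowest. The log2 fold change was 0.10 ± 0.40 at 2%, -0.02 ± 0.40 at 5% and 0.78 ± 0.40 on 10% RPS, with an edgeR adjusted p of 0.363 on 10% RPS. Without RS10_727 it was 1.01 ± 0.37 with an adjusted p of 0.147, and with the level of epithelial markers as a covariate it was 0.23 ± 0.47.

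Noxo1, the organizer, was level across the diets, and Noxa1, the activator, had its highest mean on 10% RPS. Noxo1 (ENSMUSG00000019320, GRCm39 chr17:24914682-24919504, plus strand) measured 28.2 ± 3.53, 28.7 ± 1.61, 28.6 ± 4.01 and 27.3 ± 4.69 CPM on 0, 2, 5 and 10% RPS (SD, n = 5). The groups overlapped at every level, and its log2 fold change on 10% RPS was -0.05 ± 0.12, a sign that turned in 5 of 27 alternatives. Noxa1 (ENSMUSG00000036805, GRCm39 chr2:24975679-24985181, minus strand) measured 47.5, 44.0, 50.3, 48.1 and 40.7 CPM on 0% RPS and 42.97, 35.04, 60.37, 60.79 and 70.01 CPM on 10% RPS. Thus 3 mice on 10% RPS exceeded all controls and RS10_727 was the lowest of all 20 mice. At 2 and 5% RPS Noxa1 averaged 42.0 ± 5.04 and 45.4 ± 3.66 CPM. Its log2 fold change on 10% RPS was 0.22 ± 0.14 (edgeR adjusted p = 0.446), and its trend had an adjusted p of 0.234, or 0.0426 without RS10_727.

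The log2 ratio of Noxo1 to Nox1 was 0.92 ± 0.65 (SD, n = 5) on 0% RPS and 0.15 ± 0.63 on 10% RPS. The difference was -0.78 (exact permutation test, two-sided, p = 0.0873, adjusted 0.464). The ratio of Noxa1 to Nox1 was 1.63 ± 0.49 and 1.10 ± 0.46, a difference of -0.53 (exact permutation test, two-sided, p = 0.103, adjusted 0.464). The differences on 5 and 2% RPS lay between -0.11 and 0.06, with unadjusted exact permutation p-values of at least 0.817. Without RS10_727 the 2 ratios differed on 10% RPS by -1.05 and -0.73, with unadjusted exact permutation p-values of 0.0238 and 0.0317. Without RS10_703 the first differed by -1.002, with 0.0476. In the other 11 alternatives for the first ratio and the other 12 for the second, the unadjusted exact permutation p stayed above 0.05.

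Nox1 shares 564 exon bases with Cstf2, a gene of RNA 3′ end cleavage on the opposite strand. Cstf2 measured 42.3 ± 3.95 CPM on 0% RPS and 52.4 ± 10.7 CPM on 10% RPS, and it was among the 3 of 15224 genes with the highest correlation with Nox1 (Pearson r = 0.89 over 20 mice). Whether reads of one gene were counted for the other was not tested. Noxo1 shares 2302 exon bases, 52.8% of its annotated exons, with Tbl3 and 609 with Gfer, both on the opposite strand, and its Pearson r with them was 0.25 and -0.39. Noxa1 shares 50 exon bases with Entpd8, at an r of 0.65. Cybb shares 304 with Xk, at an r of 0.32. Duox2 and Gpx2 share exon bases with no other annotated gene.

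Cybb (ENSMUSG00000015340, GRCm39 chrX:9301491-9354010, minus strand) was called in no comparison, and its diets overlapped. It averaged 9.73 ± 2.62, 10.1 ± 2.55, 10.4 ± 1.40 and 11.2 ± 2.55 CPM on 0, 2, 5 and 10% RPS (SD, n = 5), and its lowest and highest mice, at 6.34 and 14.3 CPM, were on 0 and 10% RPS. The log2 fold change on 10% RPS was 0.20 ± 0.20 (edgeR adjusted p = 0.673). Its cytosolic partners include p47phox (Ncf1) and p40phox (Ncf4). Ncf1 measured 7.99 ± 2.04 CPM on 0% RPS and 7.95 ± 1.41 CPM on 10% RPS, and Ncf4 measured 7.57 ± 2.55 and 9.11 ± 1.36 CPM, with edgeR adjusted p-values of 0.995 and 0.599. Cyba measured 59.2 ± 8.31 CPM on 0% RPS and 58.0 ± 3.33 CPM on 10% RPS and was not called (edgeR adjusted p = 0.910).

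The 8 macrophage markers summed to 160.9 to 325.1 CPM on 0% RPS and 149.2 to 209.5 CPM on 10% RPS, and 0 of 8 had a higher mean at 10% than on 0% RPS. Of the 8 neutrophil markers, 6 averaged under 1 CPM, among them the defining genes S100a8 at 0.0943 CPM and S100a9 at 0.0497 CPM. Ly6g, at 222.2 CPM, made up 99.2% of their sum. The sum was 132.2 to 247.5 CPM on 0% RPS and 178.8 to 400.8 CPM on 10% RPS, so its size is almost that of Ly6g alone. The genes most like Cybb over the 20 mice were Itgb2, the beta chain of leukocyte integrins (Pearson r = 0.90), Cd48, a leukocyte surface protein (r = 0.87), and Cxcr4, a chemokine receptor (r = 0.86). Within diets these values were 0.91, 0.87 and 0.86.

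Nos2 (ENSMUSG00000020826, GRCm39 chr11:78811613-78851080, plus strand) was the lowest gene of the set, and a single mouse decided its largest difference. It measured 0.935, 1.46, 0.497, 1.61 and 1.66 CPM on 0% RPS and 1.05, 3.38, 1.03, 1.22 and 1.62 CPM on 2% RPS. It measured 4.06, 1.26, 22.9, 0.862 and 3.66 CPM on 5% RPS and 5.93, 3.37, 2.65, 1.01 and 3.77 CPM on 10% RPS. Thus 3 of 5 mice on 5% RPS and 4 of 5 on 10% RPS exceeded the highest control, while RS10_718, RS10_721 and RS10_731 stayed within the control range. These levels rest on 16 to 678 counts per library. The log2 fold change was 0.44 ± 0.76 at 2%, 2.41 ± 0.75 at 5% and 1.44 ± 0.75 on 10% RPS, with edgeR adjusted p-values of 0.357 at 5% and 0.373 on 10% RPS. Without RS10_719, the mouse at 22.9 CPM, the log2 fold change on 5% RPS was 0.99 ± 0.52 (adjusted p = 0.713), and with epithelial markers as a covariate it was 3.40 ± 0.69 (adjusted p = 0.600). On 10% RPS it was 2.94 ± 0.78 with that covariate (adjusted p = 0.484) and 0.999 ± 0.756 with diets by the treatment label (adjusted p = 0.682).

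Of 12 genes for nitric oxide synthesis and arginine use, 3 rose with RPS percent by edgeR and none fell, where 1.15% of all genes were called as rising and 0.95% as falling. Gch1, GTP cyclohydrolase I, makes the tetrahydrobiopterin that nitric oxide synthases need, and it rose from 24.2 ± 2.39 CPM on 0% RPS to 34.2 ± 3.92 CPM on 10% RPS (edgeR's adjusted p of the trend, 0.0249). Gchfr, the feedback regulator of that enzyme, rose from 2.42 ± 0.505 to 4.57 ± 1.32 CPM (edgeR's adjusted p of the trend, 0.0157). Ddah1 breaks down asymmetric dimethylarginine, an inhibitor of nitric oxide synthases, and it rose from 9.41 ± 3.48 to 22.3 ± 8.30 CPM (edgeR's adjusted p of the trend, 0.0342). At 10% RPS against 0% RPS edgeR called none of the 12, while DESeq2 called Gchfr and Ddah1, with adjusted p-values of 0.00155 and 0.0156, where it called 0.8% of all genes as higher. The median log2 fold change of the 12 genes was -0.10, with 5 higher and 7 lower.

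Gpx2 (ENSMUSG00000042808, GRCm39 chr12:76839107-76842326, minus strand) had higher means on 5 and 10% RPS, within the spread of the control mice. It measured 269.1, 225.1, 427.8, 175.3 and 193.7 CPM on 0% RPS, and it averaged 272.6 ± 47.8 and 330.5 ± 57.9 CPM on 2 and 5% RPS. At 10% RPS it measured 286.4, 268.1, 399.1, 314.0 and 453.8 CPM, so that 1 mouse exceeded all controls. The log2 fold change on 10% RPS was 0.42 ± 0.21 (edgeR adjusted p = 0.363). Without RS10_704, the control mouse at 427.8 CPM, it was 0.68 with an adjusted p of 0.0653, and with epithelial markers as a covariate it was 0.06 ± 0.22.

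Of 15 other genes that remove peroxide and superoxide edgeR called none in any comparison, and the median log2 fold change on 10% RPS was -0.03. Cat, which encodes catalase, measured 75.6 ± 7.06 CPM on 0% RPS and 63.5 ± 6.03 CPM on 10% RPS, and its trend was called as falling by DESeq2 (adjusted p = 0.0413), which called 2.58% of all genes as falling. By edgeR, which called 0.95% of all genes as falling, its trend was not called (adjusted p = 0.0684). Of 13 NRF2 targets and thiol recycling genes edgeR called none, with a median of 0.08. Txn1, thioredoxin, measured 806.5 ± 132.3 CPM on 0% RPS and 1064 ± 197 CPM on 10% RPS, a trend called by DESeq2 (adjusted p = 0.0375) and not by edgeR (adjusted p = 0.0828). Of 6 genes that supply NADPH, 5 were higher on 10% RPS, with a median of 0.21, and none was called. Among 5 haem peroxidases, 2 were tested and neither was called. Lpo, lactoperoxidase, which uses hydrogen peroxide, measured 4.199 ± 3.523 CPM on 0% RPS and 9.40 ± 5.78 CPM on 10% RPS (edgeR adjusted p = 0.333). Of 13 other members and partners of the oxidase family, 12 were in the table and edgeR called none of them on 2, 5 or 10% RPS. For the trend, edgeR called 1 of the 12 as falling and 0 as rising, where 0.95% of all genes were called as falling. DESeq2 called 1 as falling and 1 as rising, where 2.58% and 3.44% of all genes were called.

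A list of 18 genes tied to the control of dual oxidase and nitric oxide synthase genes was examined, of which 14 were tested. It held cytokines, cytokine receptors, transcription factors and the NF-kB inhibitor gene Nfkbia, so not all of its genes are inducers. The transcripts of Ifng, Il6, Il17a and Il22 were too low to test, at means of 0.0167, 0.0771, 0.0225 and 0.00598 CPM. Irf1, a transcription factor of the interferon response, was called on 10% RPS, with 134.1 ± 16.2 CPM at 0% and 208.8 ± 25.4 CPM on 10% RPS (log2 fold change 0.64 ± 0.10, edgeR adjusted p = 0.00929). Nfkbiz, an inducible member of the NF-kB regulators, rose with RPS percent from 44.2 ± 12.3 to 72.4 ± 11.3 CPM (edgeR's adjusted p of the trend, 0.0181). At 10% RPS DESeq2 called 3 genes of the list, Irf1, Nfkbiz and Cdx2, and 0.8% of all genes as higher. By edgeR, 1 of the 14 was called at that level, where 0.0391% of all genes were called as higher. Cdx2, an intestinal transcription factor that is also among the epithelial markers and is named here after its values were seen, measured 11.5 ± 7.13 CPM at 0% and 31.3 ± 7.98 CPM on 10% RPS. Of the 14 tested genes, 7 were higher on 2% RPS, all 14 on 5% RPS and 11 on 10% RPS. Their median log2 fold change was 0.098 on 5% RPS and 0.22 on 10% RPS, against -0.008 and -0.015 over all tested genes.

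The 8 genes were then compared over the 20 mice to see which varied together. Of 28 pairs, 5 had an adjusted p of at most 0.05 for Pearson's r of log2 CPM, and all 5 were positive. The share among pairs of all tested genes was not computed, so whether 5 of 28 is unusual is not known. Duox2 and Duoxa2 were the closest pair, at r = 0.89 (permutation p = 1e-05, the smallest that 100000 permutations can give, adjusted p = 0.00028). Their Spearman's rho was 0.88 (permutation p = 2e-05, adjusted p = 0.00056). Without RS10_725 and RS10_784, the mice farthest from the median of Duox2, r was 0.80, and within diets it was 0.82. The 3 mice with the highest Duox2, RS10_725, RS10_784 and RS10_719, were also the 3 with the highest Duoxa2, in the same order.

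Nos2 varied with both. With Duox2 it had r = 0.67 (permutation p = 0.00121, adjusted p = 0.0127) and rho = 0.62 (permutation p = 0.0044, adjusted p = 0.0432), and r was 0.63 without the same 2 mice and 0.50 within diets. With Duoxa2 it had r = 0.68 (permutation p = 0.00136, adjusted p = 0.0127) and rho = 0.60 (permutation p = 0.00617, adjusted p = 0.0432), and r was 0.69 without RS10_709 and RS10_725 and 0.57 within diets. Nos2 and Nox1 had r = -0.15 (permutation p = 0.525, adjusted p = 0.668). RS10_719, the mouse with the highest Nos2, ranked 3 in Duox2 and Duoxa2 and had the highest Noxo1. It was kept in all of these values of Nos2 with Duox2 and Duoxa2, and r without it was not computed.

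**Figure D3:**
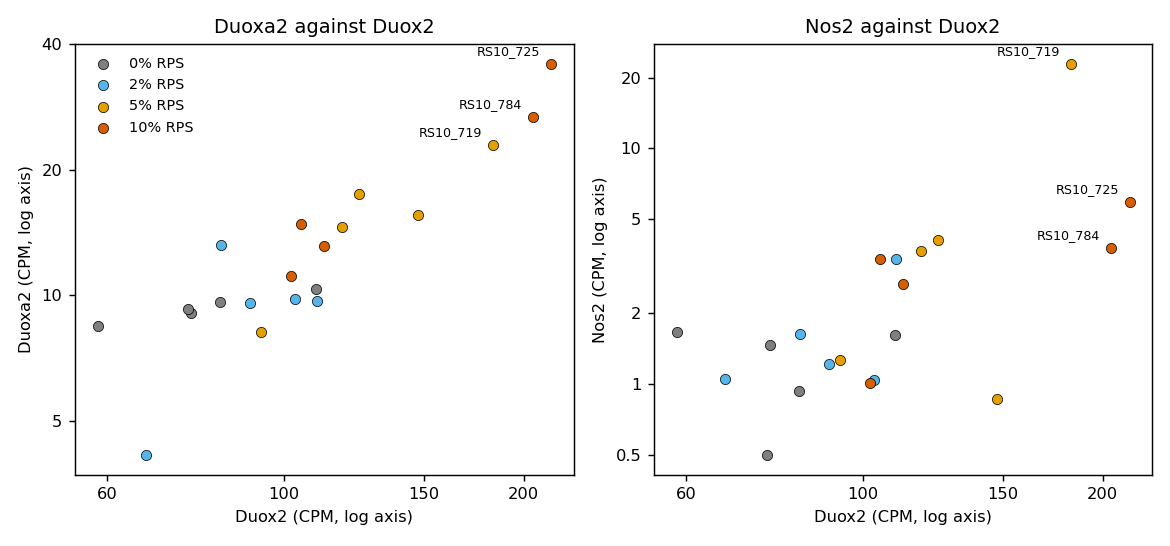
Duoxa2 (left) and Nos2 (right) against Duox2 in the 20 mice, all in CPM on log axes, coloured by diet. The mice RS10_725, RS10_784 and RS10_719 are the top 3 in Duox2 and Duoxa2, and RS10_719 has the highest Nos2, at 22.9 CPM.

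The other pairs that passed joined Noxa1 to Nox1 and to Gpx2. Nox1 and Noxa1 had r = 0.61 (permutation p = 0.00426, adjusted p = 0.0298), with r of 0.68 without RS10_715 and RS10_784 and 0.52 within diets. Their rho of 0.46 did not pass the adjustment (permutation p = 0.0421, adjusted p = 0.147). Noxa1 and Gpx2 had r = 0.60 (permutation p = 0.00557, adjusted p = 0.0312) and rho = 0.61 (permutation p = 0.00531, adjusted p = 0.0432), with r of 0.51 without RS10_731 and RS10_784 and 0.61 within diets. Nox1 and Gpx2 had r = 0.52 (permutation p = 0.0195, adjusted p = 0.0912) and rho = 0.56 (permutation p = 0.0120, adjusted p = 0.0674). Gpx2 had similar values with Duoxa2, at r = 0.50 (permutation p = 0.023, adjusted p = 0.092), and with Duox2, at r = 0.47 (permutation p = 0.036, adjusted p = 0.127). Within diets the r of Gpx2 was 0.49 with Nox1, 0.28 with Duoxa2 and 0.17 with Duox2. Noxo1 and Nox1, partners in one enzyme, had r = -0.13 (permutation p = 0.578, adjusted p = 0.674) and rho = -0.09 (permutation p = 0.691, adjusted p = 0.813).

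**Figure D4:**
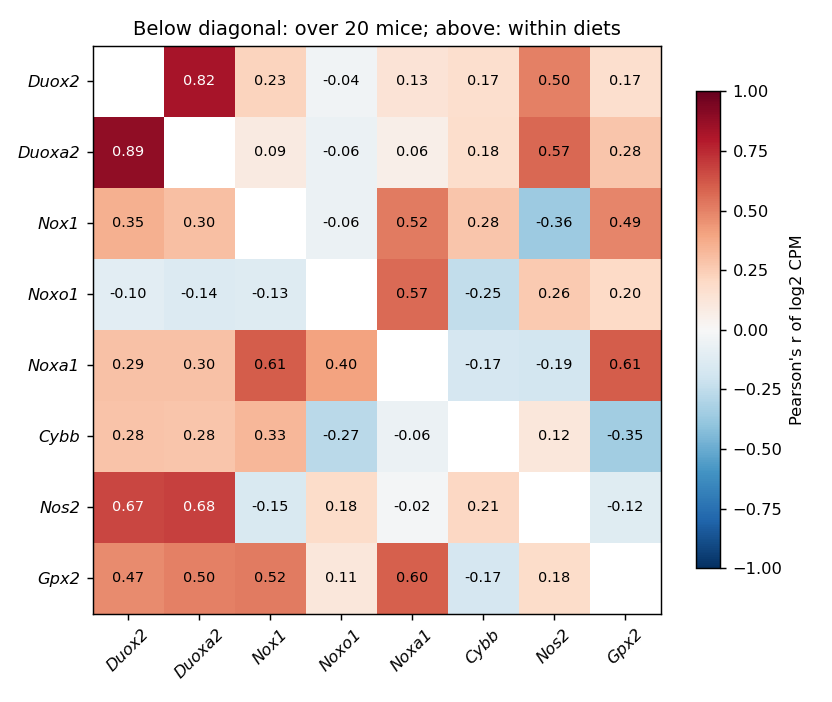
Pearson's r of log2 CPM between each pair of the 8 genes, over 20 mice below the diagonal and with diet means removed above it. Colour runs from -1 (blue) to 1 (red), and Duox2, Duoxa2 and Nos2 form a group at 0.67 to 0.89 over all mice, with 0.50 to 0.82 within diets.

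Markers of epithelial cell types moved with some of the genes, and these values are descriptions with no test. The 8 surface colonocyte markers, such as Car1 and Car4, were all higher on average at 10% than on 0% RPS, and their sum was 6495 to 7604 CPM on 10% RPS against 4283 to 6067 CPM on 0% RPS, with no overlap. Over the 20 mice the sum had a Pearson r of 0.64 with Duox2, 0.70 with Duoxa2 and 0.73 with Gpx2. Within diets these were 0.18, 0.35 and 0.70. With the 10 epithelial markers the r was 0.29 for Duox2, 0.36 for Duoxa2 and 0.72 for Gpx2, and -0.01, 0.15 and 0.65 within diets. The part of the surface markers in the differences of Duox2 and Duoxa2 was not tested.

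Nox1 moved with other markers. The 7 goblet cell markers summed to 8135 to 12426 CPM on 0% RPS and 8745 to 16728 CPM on 10% RPS, so that 3 mice exceeded all controls, with 5 of 7 markers higher on average. The sum had an r of 0.79 with Nox1 over the 20 mice and 0.74 within diets. With Noxa1 the r was 0.63 and 0.55, and with Gpx2 it was 0.52 and 0.41. The 8 crypt base and proliferation markers had an r of 0.70 with Nox1, 0.61 with Noxa1 and 0.71 with Gpx2, and 0.73, 0.62 and 0.72 within diets. Their sums were 280.8 to 507.6 CPM on 0% RPS and 260.6 to 472.2 CPM on 10% RPS. The proliferation genes Mki67, Pcna and Top2a weighed most, at means of 111.3, 89.3 and 72.9 CPM. Smoc2 and Axin2 averaged 48.4 and 34.0 CPM, and Lgr5, Ascl2 and Olfm4 averaged 7.91, 7.81 and 0.0252 CPM. RS10_727, low in Nox1 and Noxa1, was the shallowest of the 20 libraries at 18.43 M counts. In the 10% RPS group it had the lowest goblet, crypt, epithelium, surface colonocyte, neutrophil and B cell marker sums and the highest smooth muscle and macrophage sums.

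**Figure D5:**
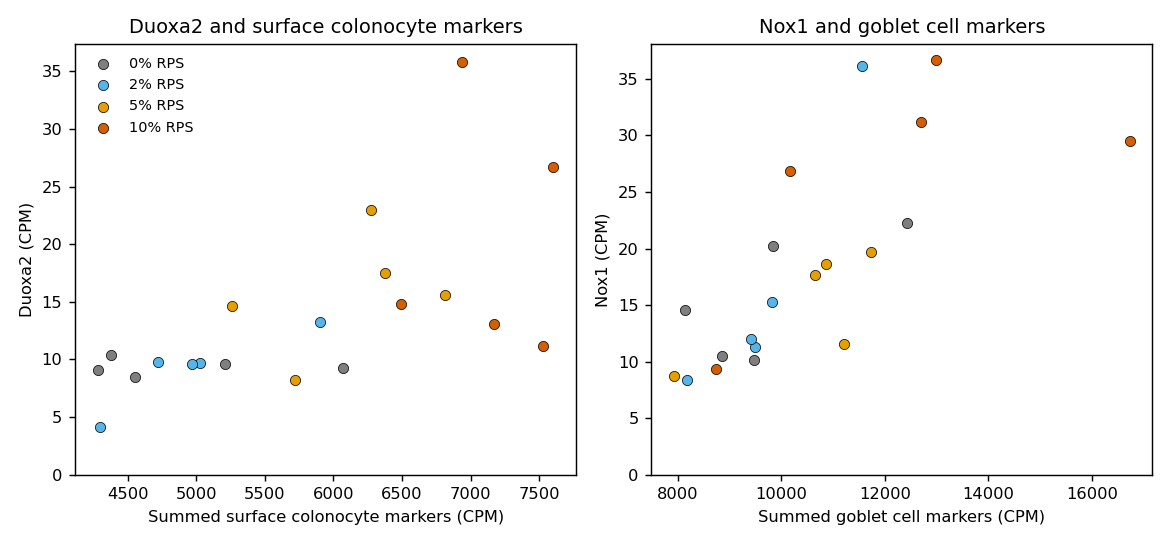
Duoxa2 against the summed surface colonocyte markers (left) and Nox1 against the summed goblet cell markers (right) in the 20 mice, all in CPM, coloured by diet. All 10% RPS mice lie right of the controls on the left, and on the right the r of Nox1 with the goblet markers on the log2 scale is 0.79 over all mice and 0.74 within diets.

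The genes most like each member were found by Pearson r over the 20 mice among 15224 genes of at least 1 CPM. For Duox2 they were the long non-coding RNA genes Gm15657 (r = 0.89) and 4732471J01Rik (r = 0.87) and the unclassified transcript Gm17334 (r = 0.87), which GENCODE places inside the Irf1 locus on the opposite strand. Gm15657 also led for Duoxa2 (r = 0.86), followed by the semaphorin gene Sema6d (r = 0.84) and the inflammatory caspase gene Casp4 (r = 0.82). For Nos2 they were Socs3, an inhibitor of cytokine signals (r = 0.87), Nr1h4, the bile acid receptor (r = 0.82), and Trim40 (r = 0.81).

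For Nox1 the chloride channel accessory gene Clca3b (r = 0.89) and Far1, a fatty acyl-CoA reductase (r = 0.89), stood beside the overlapping Cstf2. For Gpx2 they were the helicase gene Ddx39a (r = 0.95), Gsr, glutathione reductase (r = 0.94), and Itpa (r = 0.94). For Noxo1 they were the sodium/proton exchanger gene Slc9a8, Fancl and Gm50017 (r = 0.89 each), and for Noxa1 they were Traip, Tdp2 and Mfsd13a (r = 0.86 each).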

How the data were processed

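RNA from the DC of 20 mice was sequenced from stranded polyA libraries with single-end reads. The authors trimmed and mapped these to GRCm39 in CLC Genomics Workbench and deposited raw counts per gene, with no normalization and no pooling. The annotation release, the strand setting and the rule for multi-mapping reads are not given in the sources used here, so counts of overlapping genes are uncertain. Totals were 18.43 to 34.97 M counts per mouse. SD values measure the spread between mice, and SE values come from a fit that includes that spread.

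Symbols and positions (1-based) came from GENCODE vM39. Counts were analysed in R 4.3.3 with edgeR 4.0.16 (filterByExpr at a minimum count of 10, TMM scaling, glmQLFit robust) in one fit over the 4 diets, with adjustment over 17893 genes. Calls needed an adjusted p up to 0.05 and a fold of 1.5 or more, with no fold threshold for the trend or for any diet difference. SE was the log2 fold change divided by the square root of F. DESeq2 1.42.0 was an alternative. CPM used TMM-scaled totals, log2 CPM a prior count of 2, and ratios CPM + 0.1. CPM per kb used the length of the Ensembl canonical transcript. The 28 correlations and 9 ratios were tested by two-sided permutation.

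Groups came from the description label, and the treatment label was an alternative, as were other scaling, no filter, an epithelial covariate, fewer diets in the fit and leaving out each mouse. Mouse numbers are unique, so nothing pairs mice. The 40 pairs of mice within diets differed beyond sampling noise (chi-square per degree of freedom 9.74 to 67.9). The p-values of diet differences set these against the spread between mice, with each mouse taken as independent. The cages and litters of the mice are not given in the sources used here, so that independence could not be checked. Named were all 8 members, 8 fixed partners, and at most 3 called genes per list. Values of 2 genes that this rule names are not reported here. The members and gene lists were chosen with earlier results of these data known.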

Additional observations from a re-analysis of the deposited data

Results flagged for a closer look

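A single mouse lay far from the others of its diet in 3 of the 32 groups of 5 mice examined (8 genes in 4 diets), where chance gives about 1 in 20, or 1.6. Nox1 was 36.1 CPM in RS10_715 at 2% RPS, with the next mouse at 15.2 CPM. Nos2 was 3.38 CPM in RS10_712 at 2% RPS, with the next mouse at 1.62 CPM. Nos2 was 22.9 CPM in RS10_719 at 5% RPS, with the next mouse at 4.06 CPM.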

How the results depend on the processing

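No member was called at 10% RPS by edgeR, while DESeq2 called 2 and leaving out a mouse gave 0 to 1 (Duox2, adjusted p = 0.0459 without RS10_727). Members called for the trend were 2, and 0 with no filter, with the treatment label, without the 3 mice whose labels disagree and with the epithelial covariate. Leaving out a mouse gave 0 to 3, with Noxa1 added without RS10_727, and the cause was not tested. The counts at 5 and 2% RPS were 0 in all 27 alternatives. The Noxo1 log2 fold change at 10% RPS turned from -0.05 to 0.027 with the treatment label, 0.025 without the 3 mice, 0.065 with the covariate, and ranged from -0.115 to 0.022 when a mouse was left out (0.015 without RS10_725). Its slope per percent RPS turned to 0.00077, 0.0021 and 0.0033 in the same order and ranged from -0.0117 to 0.0016 (0.00087 without RS10_725). When a mouse was left out, the difference in the Noxo1 to Nox1 ratio ranged from -1.05 to -0.62 and that in the Noxa1 to Nox1 ratio from -0.73 to -0.39. No paired analysis was possible because each mouse number belongs to a single animal and no label links mice of different diets.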
